A study of Bos taurus with 48 samples.

Results

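The genes described here are 6 receptors or receptor components through which steroid hormones act on the uterus: ESR1 and ESR2 (estrogen receptors alpha and beta), PGR (the nuclear progesterone receptor), PGRMC1 and PGRMC2 (progesterone receptor membrane components 1 and 2) and NR3C1 (the glucocorticoid receptor). They were found by gene symbol among the non-control probes of a bovine oligonucleotide array, 6 of 14778 genes named on it, with 1 probe each. The probe for ESR1 carries an older gene number on the array, with the description estrogen receptor alpha, and was matched through that number. Endometrium was collected on day 17 of the estrous cycle from 22 lactating Holstein Friesian dairy cows with synchronized cycles, of which 12 were pregnant after transfer of embryos on day 7 and 10 were cyclic, with no embryo transferred. Each cow gave caruncular tissue, the aglandular sites at which the placenta later attaches, and intercaruncular tissue, the gland-bearing areas in between, so that each state and tissue is a group of its own. Of the pregnant cows, 7 carried a large embryo (over 20 cm and over 75 mg) and 5 a small embryo (under 20 cm and under 40 mg), and 6 were labelled fertile and 6 sub-fertile. The cows were of mixed New Zealand and North American ancestry, their ages were not given in the sources used here, and every pregnancy was obtained by transfer of a blastocyst of the best grade.

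Steroid receptors are proteins that bind their hormone inside the cell and then act as transcription factors at responsive genes. In ruminants, progesterone dominates the uterus through most of the cycle, and the cycle ends when estrogen receptor alpha and the oxytocin receptor rise in the endometrium and oxytocin releases pulses of prostaglandin that regress the corpus luteum. Interferon tau from the elongating conceptus is known for holding back that rise, which is why the receptors are of interest on day 17.

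ESR1 is the receptor on which most of the results below turn. The first 30 of the 60 bases of its array probe are shown 5′ to 3′, because they identify the transcript that was measured. The whole probe has a GC content of 36.7%.
ESR1 probe: ttctgttttgttgcagcttcgctttgttta

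Every value is a log2 ratio of the sample (Cy5) to a pool of all 44 samples (Cy3) hybridized to the same array. A value of 0 does not mark the exact level in the pool. The mean of ESR1 lay above 0, and that of NR3C1 below 0, in every group of tissue and state. Only differences between groups of the same receptor are read, and levels of different receptors cannot be set against each other. The probes of all 6 receptors were well above background in 44 of 44 samples. Per array, between 68.8 and 84.0% of spots were well above background, and the number of arrays, not a read depth, limits the precision. A call needed a change of 1.5-fold or more and an adjusted p below 0.05. Contrasts within the pregnant cows and the interaction of tissue and pregnancy used the adjusted p alone. Markers of endometrial epithelium (8 of 8) and stroma (8 of 8) passed the filter that removes probes with low signals. Of 8 trophoblast markers 0 passed it, and the interferon tau probe IFNT2 was well above background in 0 of 44 samples. As these are bulk tissues, fewer cells of a type and less RNA per cell cannot be told apart in any result below.

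ESR1, the receptor through which estradiol drives endometrial growth and oxytocin receptor expression, was lower in pregnant than in cyclic cows in both tissues, and it was the only one of the 6 receptors to be called. In caruncular tissue its log2 ratio ranged from 0.587 over a median of 1.28 to 2.06 in the 10 cyclic cows, and from -0.62 over a median of 0.42 to 1.23 in the 12 pregnant cows. The groups overlapped, but each of the 12 pregnant cows lay below the cyclic mean, and 8 of them lay below every cyclic cow. The difference was -0.96 on the log2 scale (SE 0.21, 95% confidence interval -1.40 to -0.51), a 1.94-fold lower level with an adjusted p of 0.0024 by limma. With ESR1, 1 of 6 receptors was called, beside 10.2% of all probes tested (4.27% as lower in pregnant cows).

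In intercaruncular tissue, ESR1 ranged from 0.495 over 0.92 to 1.59 in the cyclic cows and from -0.71 over 0.048 to 1.10 in the pregnant cows. Again the groups overlapped, with 11 of 12 pregnant cows below the cyclic mean and 9 below all cyclic cows. The change was -0.86 (SE 0.19, 95% confidence interval -1.26 to -0.47), or 1.82-fold lower, with an adjusted p of 0.003, and here too 1 of 6 receptors was called, beside 7.45% of all probes. The change in caruncular tissue differed from that in intercaruncular tissue by -0.09 (SE 0.29, adjusted p = 0.999), and 0 of 6 receptors passed the test of that difference, beside 0.0511% of all probes. With the cow as a block, 158 probes (fixed block) or 440 (random block) passed in place of 8, and again 0 of the receptors.

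**Figure D1:**
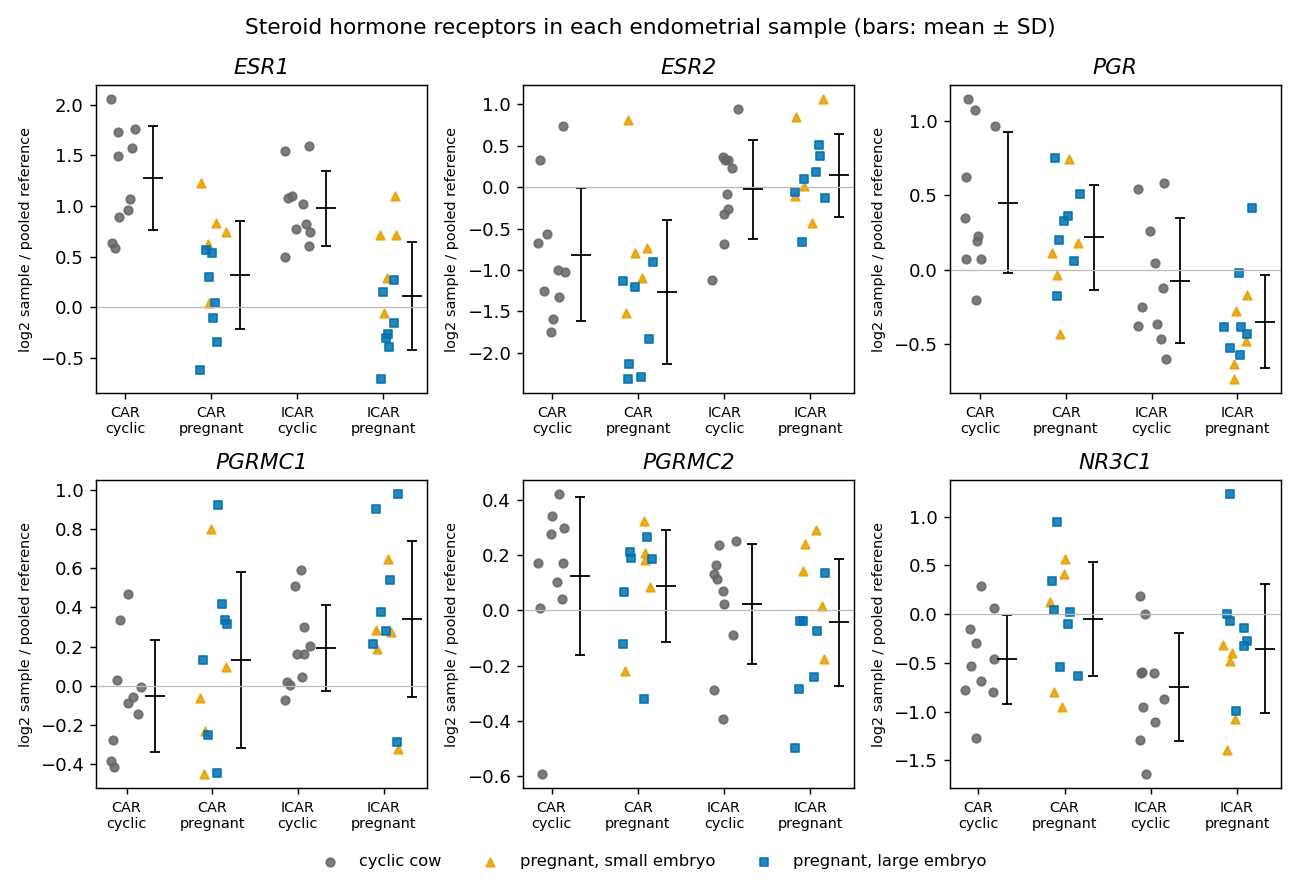
Level of the 6 receptors as log2 ratio of sample to pool (vertical axes) in caruncular (CAR) and intercaruncular (ICAR) tissue of cyclic and pregnant cows, each point 1 cow, marked by embryo size, with the group mean and SD as bars. The ESR1 points of pregnant cows lie mostly under those of cyclic cows in both tissues, with means of 0.32 against 1.28 in caruncular and 0.11 against 0.98 in intercaruncular tissue, while the other receptors overlap widely between the states.

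The ESR1 spot was saturated in the sample channel in 2 caruncular cyclic cows, so that their values of 0.64 and 0.95 are lower bounds, and a further one (0.587) rested on its repeat array. Without these cows the caruncular change was -1.19 (adjusted p = 0.001). All of them lay below the cyclic mean of 1.28, so their omission could only enlarge the difference and is no check of it. On cows hybridized again, ESR1 differed between arrays by 0.15 to 0.32. Among first arrays, only 1 slide of each tissue carried cows of both states. On it, ESR1 of the 3 pregnant cows was -0.62, 0.54 and 0.83 in caruncular tissue, all below the cyclic cow at 1.57, and in intercaruncular tissue it was -0.16, 0.15 and 0.71, all below the cyclic cow at 1.02. With the slide as a fixed block, which rests on those cows alone, the changes were -1.32 (adjusted p = 0.35) and -0.78 (adjusted p = 0.53), so the direction held and the call was lost. In that fit a cow with a repeat array was placed on the slide of its first array. A slide with repeat arrays also held caruncular samples of both states. On that slide ESR1 was 0.565 in Pregnant_9790 and -0.502 on the repeat array of Pregnant_926. Both lay below the 0.914 on the repeat array of Non-Pregnant_9960. Smooth muscle markers moved with pregnancy as well: 5 of 7 were called lower in pregnant cows in each tissue. Their combined level, on the scale of a single gene, ranged from -0.35 to 1.10 in cyclic and from -1.44 to 0.51 in pregnant caruncular tissue. In intercaruncular tissue it ranged from -0.95 to 0.83 against -1.61 to 0.12. Endothelial markers were called lower for 3 of 7 in each tissue. Of 8 epithelial markers 2 were called higher and 2 lower in caruncular and 2 higher in intercaruncular tissue, of 8 stromal markers 1 higher and 1 lower, and 3 lower, and of 9 leukocyte markers 1 higher and 0. Their part in the ESR1 difference was not tested.

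Grouped by the size of the recovered embryo, the mean of ESR1 was lowest in the cows with a large embryo. In intercaruncular tissue the 7 cows with a large embryo ranged from -0.71 over -0.27 to 0.27, and the 5 cows with a small embryo read -0.06, 0.29, 0.71, 0.71 and 1.10. All 7 lay below the mean of the small-embryo cows and 5 lay below every one of them. The difference of -0.75 (SE 0.21, unadjusted p = 0.0033) had an adjusted p of 0.067 by limma and was not called, while 3.38% of all probes were. With slide as a random block it was -0.70 and passed (adjusted p = 0.048). In caruncular tissue the large-embryo cows ranged from -0.62 over 0.04 to 0.57 and the small-embryo cows read 0.04, 0.62, 0.74, 0.83 and 1.23. Again all 7 were below the mean of the other group, and the difference of -0.64 (SE 0.24) had an unadjusted p of 0.019 and an adjusted p of 0.68. In that tissue 0% of all probes passed, and 0 of 6 receptors passed in either tissue. Of 7 smooth muscle markers 0 passed, with median differences of -0.37 in caruncular and -0.55 in intercaruncular tissue. In intercaruncular tissue 1 of 7 endothelial markers (PECAM1, -0.93) and 1 of 2 red cell markers (AHSP, -0.54) passed as lower with a large embryo. The part of these markers in the ESR1 difference was not tested.

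Set against the cyclic cows of the same tissue, the large-embryo cows did not overlap with them for ESR1 in either tissue, which was true of 4.69% of all probes in caruncular and 4.34% in intercaruncular tissue. In caruncular tissue the gap was narrow, between 0.565 in the highest large-embryo cow and 0.587 in the lowest cyclic cow. The difference was -1.22 (SE 0.23, adjusted p = 0.00083, 2.34-fold) in caruncular tissue, where 12.5% of all probes were called, and -1.18 (SE 0.17, adjusted p = 7.3e-05, 2.26-fold) in intercaruncular tissue, where 11.6% were. The small-embryo cows differed from the cyclic cows by -0.58 (SE 0.25, adjusted p = 0.2) and -0.42 (SE 0.20, adjusted p = 0.29), overlapped with them and were not called, beside 3.54 and 1.62% of all probes. With slide as a fixed block the large-embryo differences were -1.61 (adjusted p = 0.16) and -1.02 (adjusted p = 0.16), and neither was called. Both comparisons share their cyclic cows with the comparison of all pregnant cows.

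**Figure D2:**
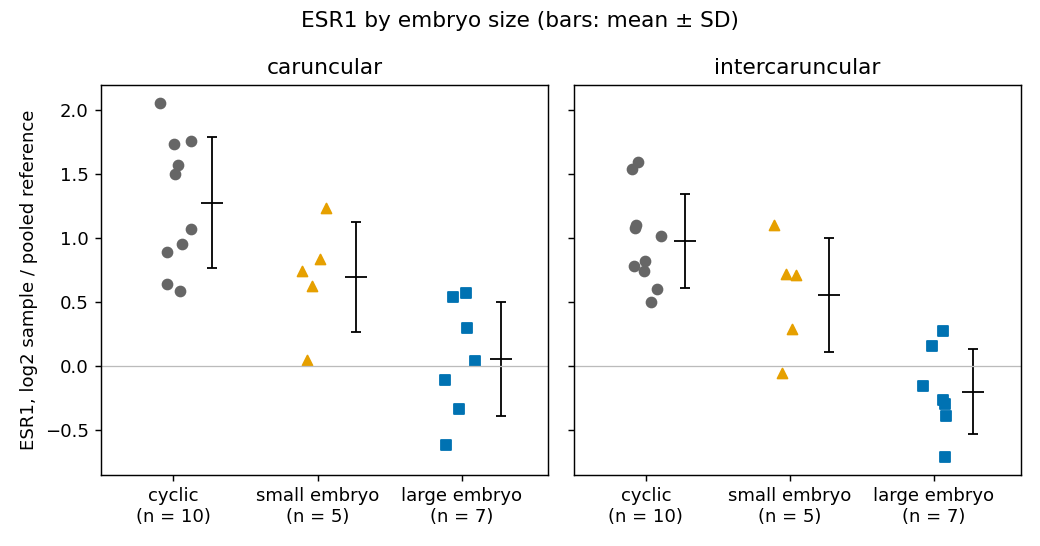
ESR1 level as log2 ratio of sample to pool in cyclic cows, cows with a small embryo and cows with a large embryo of each tissue, each point 1 cow, with the group mean and SD as bars. Means step from 1.28 over 0.69 to 0.05 in caruncular and from 0.98 over 0.55 to -0.20 in intercaruncular tissue, and the large-embryo cows lie below all cyclic cows.

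OXTR, the oxytocin receptor that completes the luteolytic signal and an established downstream gene of estrogen action, fell in pregnant cows of both tissues. Its log2 ratio in caruncular tissue ranged from -0.71 over 0.83 to 2.13 in cyclic and from -3.59 over -2.13 to -1.11 in pregnant cows, and in intercaruncular tissue from -0.59 over 1.05 to 2.25 and from -3.88 over -2.52 to 1.03. The states did not overlap in caruncular tissue, as for 1.87% of all probes, and in intercaruncular tissue 11 of 12 pregnant cows lay below the cyclic mean. The changes were -2.98 (SE 0.32, adjusted p = 3.9e-07) and -2.94 (SE 0.48, adjusted p = 0.0002). Within each state and tissue, the level of ESR1 was compared with that of OXTR and of PGR over cows, 8 relations in all. The closest was ESR1 with OXTR in caruncular tissue of the 10 cyclic cows, with Pearson's r of 0.64 (permutation p = 0.048, adjusted over the 8 relations 0.38) and Spearman's rho of 0.61 (adjusted permutation p = 0.4). Without the 2 cows farthest from the median of ESR1, r was 0.45. Without such cows, r of ESR1 with PGR in caruncular tissue of the pregnant cows went from -0.39 to -0.76. None of the 8 relations passed the adjustment over all cows.

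Of 12 tested genes known to respond to estrogen, 3 were called in caruncular tissue, all lower in pregnant cows, against a background of 4.27% called lower. Beside OXTR these were GREB1, a coactivator of the estrogen receptor, at -1.34 (SE 0.38, adjusted p = 0.013), and TFF3, a secreted trefoil peptide of mucosal epithelia, at -2.26 (SE 0.63, adjusted p = 0.011). In intercaruncular tissue OXTR and TFF3 (-1.24, SE 0.41, adjusted p = 0.035) were called lower, 2 of 12 beside 3.29% of all probes, whereas GREB1 at -0.83 had an adjusted p of 0.054. Over the 12 genes the changes had a median of -0.30 in caruncular and 0.01 in intercaruncular samples, beside -0.04 and -0.01 over all probes. The list holds OXTR and was chosen with earlier results of these data known, so the share called is a description and no test.

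ESR2, the second estrogen receptor, differed between the tissues and not detectably between the states. In cyclic cows it ranged from -1.75 over -1.02 to 0.74 in caruncular tissue and from -1.12 over 0.08 to 0.94 in intercaruncular tissue. Its level was higher in the caruncular sample in 3 of 10 cyclic cows only. The difference was -0.79 (SE 0.30, adjusted p = 0.047, 1.73-fold lower in caruncular tissue), and 1 of 6 receptors was called, beside 12.6% of all probes. This call sat close to the threshold, since leaving out any 1 of 7 of the 10 cows ended it, at differences between -0.95 and -0.69 over all omissions. The main fit left out the pairing of the tissues by cow, and within cows the difference had an SD of 0.87. Over the other alternatives, the cow as a block among them, the adjusted p ranged from 0.0059 to 0.63.

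In pregnant cows ESR2 ranged from -2.32 over -1.17 to 0.81 in caruncular and from -0.66 over 0.06 to 1.07 in intercaruncular tissue. It was higher in the caruncular sample in 0 of 12 cows, although the groups overlapped. The difference was -1.41 (SE 0.28, adjusted p = 0.00022, 2.65-fold), the 1 call among 6 receptors beside 17.8% of all probes. Within cows the difference had an SD of 0.9. Over the alternatives other than leaving out 1 cow, the cow as a block among them, the adjusted p ranged from 7.1e-06 to 0.72. By state, ESR2 changed by -0.45 (SE 0.34, adjusted p = 0.34) in caruncular and by 0.17 (SE 0.22, adjusted p = 0.63) in intercaruncular tissue. In caruncular tissue the large-embryo cows differed from the small-embryo cows by -1.02 (SE 0.38, unadjusted p = 0.021, adjusted p = 0.68), which was not called.

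The caruncular and intercaruncular samples of a cow were scanned in the same batch for only 2 cows, 1 of each state, and in different batches for the other 20, so for those cows tissue and scan batch cannot be told apart. In each of these 2 cows both tissues were hybridized on 1 slide, and ESR2 differed between the tissues by -1.68 and -1.07. With scan batch as a term the ESR2 differences were -0.81 (adjusted p = 0.63) in cyclic and -1.74 (adjusted p = 0.72) in pregnant cows. Cell type markers moved with the tissues: 2 of 8 epithelial markers in cyclic and 6 of 8 in pregnant cows were called lower in caruncular tissue. Another 1 of the 8 was called higher there in pregnant cows. Of 8 stromal markers, 3 in cyclic and 6 in pregnant cows were called higher in caruncular tissue. Of 7 smooth muscle markers, 0 in cyclic and 2 in pregnant cows were called higher there. Combined stromal levels, on the scale of a single gene, ranged from 0.23 to 1.45 in caruncular and from -0.03 to 0.99 in intercaruncular tissue of cyclic cows. In pregnant cows they ranged from -0.12 to 1.18 against -0.48 to 0.23. Their part in the tissue differences of the receptors was not tested.

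ESR1 and NR3C1 were not called between the tissues. The caruncular value of ESR1 was the higher one in 9 of 10 cyclic and 9 of 12 pregnant cows, by 0.30 (SE 0.19, adjusted p = 0.23) and 0.21 (SE 0.21, adjusted p = 0.43) on average. With the cow as a block, the difference in cyclic cows had an adjusted p of 0.008, short of 1.5-fold and so still not called. NR3C1 differed by 0.28 (adjusted p = 0.33) and 0.31 (adjusted p = 0.31), or, with the cow as a block in pregnant cows, with an adjusted p of 0.032, also short of 1.5-fold. With scan batch as a term, ESR1 turned to -0.29 and -0.24, and NR3C1 in cyclic cows to -0.38. In the cyclic cow with both tissues on 1 slide, NR3C1 differed by -0.49.

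**Figure D3:**
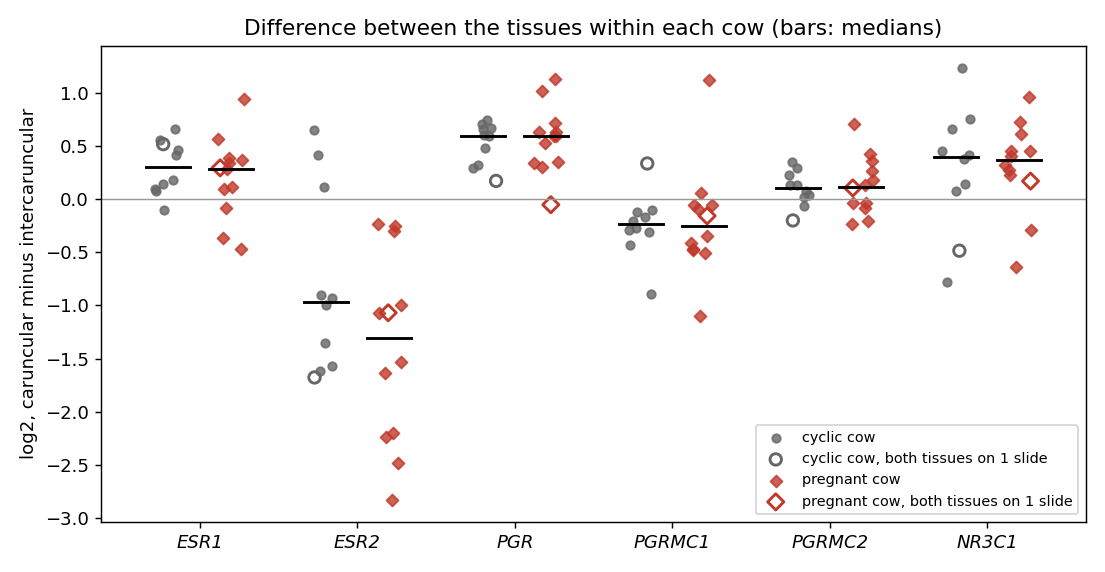
Difference of each receptor between the tissues of a cow (vertical axis, log2, caruncular minus intercaruncular), each point 1 cow, bars the medians and open points the 2 cows with both tissues on 1 slide. ESR2 lies below 0 in all 12 pregnant cows, and PGR lies above 0 in 10 of 10 cyclic and 11 of 12 pregnant cows.

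PGR, through which progesterone prepares the endometrium for the conceptus and which is lost from the epithelium during the luteal phase, went the other way between the tissues. In cyclic cows it ranged from -0.20 over 0.29 to 1.15 in caruncular and from -0.60 over -0.19 to 0.58 in intercaruncular tissue, and in pregnant cows from -0.43 over 0.19 to 0.75 and from -0.73 over -0.41 to 0.41. The groups overlapped, yet the caruncular sample was the higher one in 10 of 10 cyclic and 11 of 12 pregnant cows. The differences of 0.52 (SE 0.19, adjusted p = 0.039, 1.44-fold) and 0.57 (SE 0.13, adjusted p = 0.0011, 1.48-fold) passed the test but not the fold limit, and so were not called. These fits left out the pairing of the tissues by cow. Within cows the difference had an SD of 0.197 in cyclic and 0.317 in pregnant cows. Over the alternatives other than leaving out 1 cow, the cow as a block among them, the adjusted p ranged widely. It went from 0.0002 to 0.6 in cyclic and from 2.1e-05 to 0.9995 in pregnant cows. In the 2 cows with both tissues on 1 slide, PGR differed by 0.17 and -0.05, and with scan batch as a term by 0.45 in cyclic and 0.0025 in pregnant cows. Leaving out 1 cow at a time moved the difference in pregnant cows between 0.51 and 0.62, past the fold limit for 4 of the 12 omissions.

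Pregnant cows had PGR levels lower than cyclic cows by 0.23 (SE 0.17) in caruncular and 0.28 (SE 0.15) in intercaruncular tissue on the log2 scale, with adjusted p-values of 0.32 and 0.2, so neither was called. A second probe on the array is described only as similar to progesterone receptor (LOC507358) and is no member of the set. It was looked at after the values were seen, and was called higher in caruncular tissue by 0.87 (SE 0.23, adjusted p = 0.0077) in cyclic and 1.03 (SE 0.19, adjusted p = 0.00012) in pregnant cows. With pregnancy this probe changed by 0.20 in caruncular samples (adjusted p = 0.51) and by 0.04 in intercaruncular ones (adjusted p = 0.91), on the other side of 0 from those of PGR. A probe described as similar to estrogen receptor (LOC617874) was well above background in 0 of 44 samples.

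Of 12 tested genes known to respond to progesterone, 1 rose and 1 fell in caruncular tissue of pregnant cows, near the 5.96% of all probes called higher and 4.27% called lower. DKK1, a secreted Wnt inhibitor, was higher by 2.86 (SE 0.52, adjusted p = 0.00039), and GRP, gastrin-releasing peptide of uterine glands, was lower by -0.88 (SE 0.22, adjusted p = 0.0057). In intercaruncular tissue DKK1 alone was called, at 1.96 (SE 0.39, adjusted p = 0.0013), and GRP stood at -0.33 (adjusted p = 0.28). Over these 12 genes the changes had a median of 0.33 in caruncular and 0.10 in intercaruncular samples. Between tissues, more of these 12 genes were called: 4 higher and 2 lower in caruncular tissue of cyclic cows, and 6 higher and 2 lower in pregnant cows, beside 7.31 and 9.71% of all probes called higher and 5.33 and 8.09% called lower.

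PGRMC1 and PGRMC2 are small heme-binding membrane proteins linked to rapid actions of progesterone that do not go through PGR. PGRMC1 ranged from -0.41 over -0.07 to 0.47 in cyclic and from -0.45 over 0.11 to 0.92 in pregnant caruncular tissue. Its spot was saturated in 1 caruncular cyclic cow, whose 0.47 is a lower bound. The states overlapped almost fully, and PGRMC1 changed by 0.19 (SE 0.16, adjusted p = 0.41) in caruncular and 0.15 (SE 0.14, adjusted p = 0.48) in intercaruncular tissue. Caruncular samples differed from intercaruncular samples by -0.25 in cyclic (adjusted p = 0.1) and -0.21 in pregnant cows (adjusted p = 0.32), neither called. With the cow as a block the adjusted p in cyclic cows was 0.041, which is under the threshold for a difference short of 1.5-fold.

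PGRMC2 had the narrowest spread, with SDs of 0.20 to 0.28 within the groups of tissue and state. It ranged from -0.59 over 0.17 to 0.42 in cyclic and from -0.32 over 0.18 to 0.32 in pregnant caruncular tissue, again with overlap. Its pregnancy changes were -0.04 (95% confidence interval -0.25 to 0.18) and -0.07 (95% confidence interval -0.27 to 0.14), intervals that leave out a 1.5-fold change in either direction. PGRMC2 passed no test in the comparisons of pregnancy, tissue, embryo size and fertility label.

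NR3C1, the receptor for cortisol, had wide spreads and no call. In caruncular tissue it ranged from -1.27 over -0.50 to 0.29 in cyclic and from -0.95 over 0.03 to 0.94 in pregnant cows, and in intercaruncular tissue from -1.64 over -0.74 to 0.19 and from -1.40 over -0.32 to 1.23. The medians were higher in pregnant cows, and the states overlapped widely. The changes were 0.41 (SE 0.22, adjusted p = 0.16) and 0.39 (SE 0.25, adjusted p = 0.28), and their intervals, -0.03 to 0.86 and -0.12 to 0.91, include 0 as well as changes of more than 1.5-fold. With slide as a fixed block the caruncular change turned to -0.13 (adjusted p = 0.96). The largest difference of NR3C1 among these comparisons was with the fertility label. In caruncular tissue the 6 fertile cows ranged from -0.10 over 0.27 to 0.94 and the 6 sub-fertile cows from -0.95 over -0.59 to 0.34, with 5 of 6 sub-fertile cows below the fertile mean. That difference was -0.76 (SE 0.24, unadjusted p = 0.0075, adjusted p = 0.29), and in intercaruncular tissue it was -0.52 (SE 0.33, adjusted p = 0.51), neither called.

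Among genes known to respond to glucocorticoids, those called were all higher in pregnant cows. Of 12 tested, 2 were called in caruncular tissue, beside 5.96% of all probes called higher. These were ANXA1 (annexin A1, an anti-inflammatory mediator) at 1.59 (SE 0.30, adjusted p = 0.00057) and ZBTB16, a zinc finger transcription factor, at 0.87 (SE 0.30, adjusted p = 0.038). In intercaruncular tissue ANXA1 at 1.26 (SE 0.32, adjusted p = 0.0073) and TSC22D3, the glucocorticoid-induced leucine zipper, at 0.87 (SE 0.25, adjusted p = 0.018) were called higher, 2 of 12 beside 4.16% of all probes. The list's medians were 0.20 and 0.19, with 8 and 9 of 12 genes above 0.

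**Figure D4:**
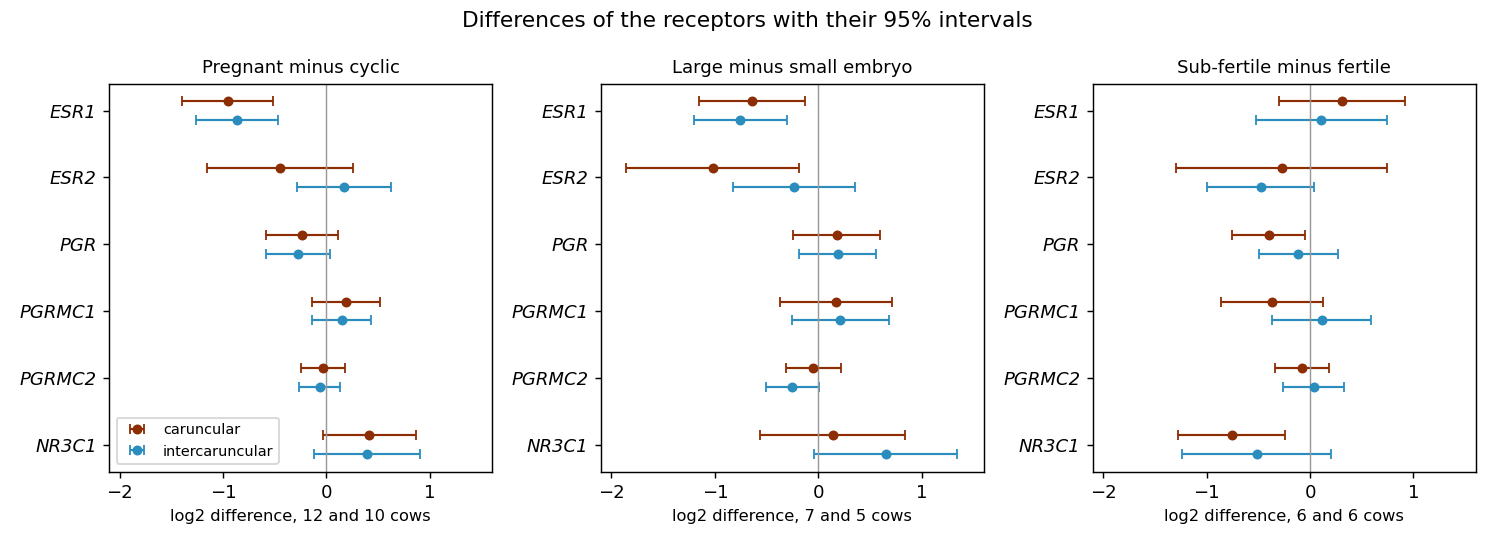
Log2 differences of the 6 receptors in each comparison for each tissue (horizontal axes: pregnant minus cyclic, large minus small embryo and sub-fertile minus fertile), each point the limma estimate and each bar its 95% confidence interval. Intervals of ESR1 lie below 0 for pregnancy and for embryo size in both tissues, while most others cross 0.

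By fertility label 0 of 6 receptors passed the test in either tissue, beside 0.00639% of all probes in caruncular and 0.0511% in intercaruncular tissue. For ESR1 the sub-fertile cows differed from the fertile cows by 0.31 in caruncular and 0.11 in intercaruncular tissue, with adjusted p-values of 0.64 and 0.89. PGR in caruncular tissue differed by -0.40 in the sub-fertile cows (SE 0.16, unadjusted p = 0.03, adjusted p = 0.33), and all 6 lay below the fertile mean. Over the alternatives run, slide as a fixed block among them, this PGR difference ranged from -0.44 to -0.0008. On the caruncular slide with first arrays of both labels, PGR read 0.11 and 0.18 in fertile and 0.33 and -0.04 in sub-fertile cows. The other caruncular slides held first arrays of pregnant cows with the same label, so label and slide cannot be told apart there.

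Among 9 tested relatives of the receptors, 1 was called higher and 1 lower in caruncular than in intercaruncular tissue of cyclic cows, and 1 higher and 3 lower in pregnant cows, beside 12.6 and 17.8% of all probes called. ESRRB, an orphan receptor related to ESR1, was called lower in caruncular tissue, by -0.82 in cyclic and -0.73 in pregnant cows. PAQR5 (-0.69) and PAQR6 (-0.71), membrane progestin receptors, were called lower in caruncular tissue of pregnant cows. These tissue differences were named after their values were seen.

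Of 10 chaperones that hold steroid receptors ready for hormone, 1 was called for pregnancy in caruncular tissue, near the 10.2% of all probes: DNAJA1, a co-chaperone of the HSP70 family, was higher by 0.74 (SE 0.16, adjusted p = 0.0022). FKBP4, the immunophilin that PGR activity depends on, changed by 0.03 and 0.08. FKBP5, a co-chaperone induced by glucocorticoids, was at 0.40 in caruncular (adjusted p = 0.0499, short of 1.5-fold) and 0.46 in intercaruncular tissue (adjusted p = 0.06). Of 9 coregulators 0 were called for pregnancy. NRIP1, a corepressor of nuclear receptors, was called higher in caruncular than in intercaruncular tissue, by 1.40 in cyclic and 1.34 in pregnant cows. It was the 1 call among 9 in each state, beside 12.6 and 17.8% of all probes, and was named after its values were seen. With scan batch as a term, 2 and 0 of all probes were called between the tissues. Of 9 genes of local steroid metabolism, HSD17B12, a hydroxysteroid dehydrogenase that also serves fatty acid elongation, was called higher in caruncular tissue of pregnant cows, by 0.98 (SE 0.24, adjusted p = 0.0052), and 1 call among 9 is near the 10.2% of all probes. HSD11B1, which regenerates cortisol inside cells, changed by -0.11 and 0.19. Probes of 1 gene did not always behave alike: a second SRD5A1 probe was called at 1.02 and 0.95 where the counted probe gave 0.07 and 0.28, and a second probe of the coregulator PHB2 was called lower in caruncular tissue of pregnant cows, at -0.60 (adjusted p = 0.025), where the counted probe gave 0.06.

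The genes whose levels followed each receptor most closely over all 44 samples were listed by Pearson's r, as a description, since the samples share arrays, cows and groups. For ESR1 these were CCDC80 (r = 0.87, and 0.74 after the group means were removed), STT3A (0.85) and RPS7 (0.84). ESR2 was followed more closely than any other of the 6, by GM2A (0.93), MGAT4C (0.92) and TPD52L1 (0.92). For PGR they were RSF1 (0.80), SLC41A2 (0.80) and RHOBTB1 (0.79), and for PGRMC1 they were UQCRC2 (0.82), C1GALT1 (0.81) and GPHN (0.80). PGRMC2 had the loosest, PLCG1 (0.69), HNRNPD (0.69) and RAB2A (0.69), and NR3C1 had AASS (0.76), PALMD (0.72) and TSC22D3 (0.70). Among the receptors themselves the relations were weaker, the furthest from 0 being ESR1 with PGRMC1 at -0.49.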

How the data were processed

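Total RNA was amplified to aRNA, labelled with Cy5 and hybridized with a Cy3-labelled pool of all 44 samples to Agilent bovine 60-mer arrays, with no dye swap, so that dye bias was not balanced. Per the file headers, the deposited scanner files came from Feature Extraction 9.5.3.1, which subtracted background, marked outlier spots and normalized the dyes by LOWESS. The authors' deposited log10 ratios of Cy5 over Cy3 were turned into log2 ratios. Raw and processed intensities in the same deposited files served for the filter and for 1 alternative. A deposited table of the authors' own log2 values (17876 probes) served as another alternative.

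Of 21475 probes, 16391 carried a symbol, and 15643 were tested: at least 80 raw signal units and well above background on most of a probe's spots (or an even split of them), in at least 22 of 44 samples. Spots of a probe were averaged, then the 4 repeat arrays with their first arrays. Array medians were all 0, so that centring changed nothing. Groups were compared in limma 3.58.1 (R 4.3.3) with Benjamini-Hochberg adjustment over all probes. Relations over cows used permutation in scipy 1.17.1. The replicate is the cow. The tissues of a cow were paired by its number: deviations from group means correlated within the cow in 22 of 22 cows (r from 0.13 to 0.86, median 0.61). The main fits left the block out, and the alternatives included it. Other alternatives were no centring, no filter, a stricter filter, normexp with loess, the deposited table, the methods' t-test, slide or scan batch as a block, embryo size or fertility label as a covariate, first or repeat arrays alone, all samples in 1 fit, and omission of each cow in turn.

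On simulated data, changes of 1.5-, 2- and 4-fold were recovered in 68, 86 and 100% for the caruncular pregnancy contrast. In the same tissue they were recovered in 38, 75 and 96% for embryo size and in 26, 67 and 90% for the fertility label. The simulated noise was independent between samples, with no slide or batch effect. These rates therefore do not cover the overlap of state or label with slide in the data. Recovery was counted at an adjusted p below 0.05 alone, without the 1.5-fold limit that a call for pregnancy also needed. Where a gene of a list had several probes, the brightest was counted. The 6 receptors were named whatever their values. Of each list the genes called for pregnancy were named, at most 5 (1 item of the list of related receptors is not reported here), together with OXTR, FKBP4, FKBP5 and HSD11B1 whatever their values, and the 3 genes most like each receptor over 44 samples. Members and lists were chosen with earlier results of these data known. Positions are not given, because the array carries none and the available annotation is of another assembly than that used for the array design.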

Additional observations from a re-analysis of the deposited data

Results flagged for a closer look

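Among 60 groups of 5 to 10 cows, 3 receptor values stood far from the rest of their group, about as many as chance gives, since roughly 1 group in 20 would be expected to hold one. PGR in intercaruncular tissue of the sub-fertile cow Pregnant_9790 was at 0.415, with the next cow at -0.387. PGRMC2 in caruncular tissue of the cyclic cow Non-Pregnant_9786 was at -0.593, with the next cow at 0.01. NR3C1 in intercaruncular tissue of the fertile cow Pregnant_926 was at 1.231, with the next cow at -0.281. The first and second of these were the only cows with both tissues on 1 slide.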

How the results depend on the processing

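Of 58 results on single receptors, 34 kept their direction and their side of the threshold under all alternatives run, and 1297 of 1350 values did. These values include settings that could not change a result, such as no centring, since the array medians were all 0. They also include differences in single cows that were judged by direction alone, so the share is no measure of robustness. The pregnancy change of ESR1 kept its call without each cow in turn, from -1.04 to -0.87 in caruncular and from -0.95 to -0.79 in intercaruncular tissue. Where a value changed, the cause was not tested, except that stricter designs had fewer cows or probes.

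With slide as a fixed block, which rests on the few slides with both groups, 55 caruncular and 119 intercaruncular probes were called for pregnancy. ESR1 was at -1.32 (adjusted p = 0.35) and -0.78 (adjusted p = 0.53), or, with large-embryo cows alone against cyclic cows, at -1.61 and -1.02 and not called. NR3C1 in caruncular tissue was at -0.13 and ESR2 in intercaruncular tissue at -1.18. The same block gave 1028 probes for embryo size in intercaruncular tissue, 0 and 1 probes for fertility, PGRMC2 at 0.17 and -0.10 and ESR1 in intercaruncular tissue at -0.90 for fertility. With slide as a random block, 708 intercaruncular probes were called for pregnancy and ESR2 was at -0.052. Embryo size then gave 879 probes and ESR1 at -0.70 (adjusted p = 0.048), and fertility in intercaruncular tissue gave 3 probes and ESR1 at -0.13.

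With scan batch as a term, 2 and 0 probes differed between tissues in cyclic and pregnant cows. ESR1 turned to -0.29 and -0.24, NR3C1 in cyclic cows to -0.38 and PGRMC1 in pregnant cows to 0.16, and ESR2 was at -0.81 and -1.74 and not called. In Non-Pregnant_9786, with both tissues on 1 slide, PGRMC1 was at 0.34, PGRMC2 at -0.20 and NR3C1 at -0.49, and in Pregnant_9790 PGR was at -0.052. ESR2 in cyclic cows lost its call with no filter (-0.79) and with the first array alone (-0.77).

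Chosen after seeing the data, omission of the 3 caruncular cyclic Non-Pregnant_2970, Non-Pregnant_3811 and Non-Pregnant_9778, whose ESR1 spot was saturated or dropped, gave 1001 probes between tissues in cyclic cows, ESR2 at -0.85 (not called) and PGRMC2 at 0.015 for pregnancy. So were centring on the tested probes, leaving 1 cow out of the tissue differences, and the comparisons of embryo classes with cyclic cows.

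The count for embryo size in intercaruncular tissue, 529, was 319 with no filter and 187 by the methods' t-test. For fertility it was 0 in caruncular tissue with no filter, a stricter filter, the methods' t-test or embryo size as a covariate, and in intercaruncular tissue 5 in the deposited table, 4 with no filter and 0 by the t-test. The 8 probes of the interaction were 5 after normexp and loess, 4 in the deposited table and 4 on first arrays. With the cow as a replicate block they were 158 (fixed) and 440 (random), with 0 receptors among them. The pairing by cow changed no other call.

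Leaving out 1 cow at a time gave 26 to 1929 probes for embryo size in intercaruncular tissue, the highest without Pregnant_9790, and 0 to 3 and 3 to 36 for fertility in caruncular and intercaruncular tissue. ESR2 between tissues of cyclic cows ranged from -0.95 to -0.69, without its call when Non-Pregnant_1950, Non-Pregnant_2952, Non-Pregnant_2970, Non-Pregnant_3972, Non-Pregnant_9778, Non-Pregnant_9786 or Non-Pregnant_9813 was left out. PGR in pregnant cows ranged from 0.51 to 0.62 and was called without Pregnant_3803, Pregnant_3807, Pregnant_9246 or Pregnant_9790. ESR1 for embryo size in intercaruncular tissue ranged from -0.91 to -0.62 and was called without Pregnant_3956 or Pregnant_9790. Directions turned for PGRMC2 with pregnancy in caruncular tissue (-0.12 to 0.00052), embryo size in caruncular tissue for PGRMC2 (-0.13 to 0.017) and NR3C1 (-0.064 to 0.31), fertility in caruncular tissue for ESR2 (-0.52 to 0.11), and fertility in intercaruncular tissue for ESR1 (-0.046 to 0.32), PGRMC1 (-0.011 to 0.25) and PGRMC2 (-0.054 to 0.10).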
